A study of Mus musculus with 2 samples.

Results

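The genes described here are 9 transcription factor genes of cartilage and bone fate in cultured mouse skin cells: Sox4, Sox5, Sox6, Sox9, Sox11, Sox12, Runx1, Runx3 and Sp7. A list of 10 genes was chosen by what its members are known to do, with the values of these arrays already known, among them that of Sox9. Runx2, the remaining gene of the list, is not analysed here, since no probe set matched it by symbol, gene identifier or accession in the platform annotation. The 9 are among 19938 genes that had a probe set assigned to a single gene symbol, and each of them had 1 such probe set. Because the choice was made with the results in view, their differences are descriptions and none carries a test.

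Dermal cells were isolated from the back skin of newborn (P0) C57BL/6 mice and cultured in DMEM with 10% fetal bovine serum for 24 h. They were then transfected for 48 h with control siRNA (1 array) or β-catenin siRNAs (1 array), each at 10 nM; such RNA duplexes direct the cleavage of a transcript they match. Both groups were C57BL/6 cells, both were transfected, and no allele is given for either. Untransfected cells are not analysed here, and the labels do not say how many pups or cultures stood behind an array. A single array stood for each group. Nothing measures the spread between cultures, so the values below carry no standard deviation and no p-value.

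Sox proteins bind DNA through an HMG box. Sox9 directs mesenchymal cells towards cartilage, where Sox5 and Sox6 act with it on the genes of cartilage matrix, and it is also a regulator of hair follicle epithelium. Sox4, Sox11 and Sox12 form the SoxC group of embryonic progenitor cells. Runx proteins bind DNA through the Runt domain together with their partner Cbfb. Runx2 and the zinc finger factor Sp7 (osterix) are needed for osteoblasts, whereas Runx1 and Runx3 are best known from blood cells and are also active in skin and cartilage. β-catenin, the effector of canonical Wnt signalling, is known to favour the osteoblast over the chondrocyte fate in skeletal progenitors.

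The arrays gave 1 log2 value per probe set after robust multi-array averaging (RMA). It aligns the distributions of the arrays, so every difference is relative to the other genes. The medians over probe sets were 4.68 with control siRNA and 4.71 with β-catenin siRNA. The target was lower: Ctnnb1, the β-catenin gene, had 10.48 with control siRNA and 9.34 with β-catenin siRNA, 45.2% of the control signal. Of 3 Wnt target or partner genes set beside it, Nkd1 and Axin2 were lower by 1.90-fold and 1.68-fold and Lef1 was 1.07-fold lower. All 14 dermal fibroblast markers passed the level filter described next, with log2 values from 5.24 to 12.77 on the control array, and Col1a1 and Vim were above 12.6 on both. A gene passed the filter if the higher of its values reached 5.13, the median over genes of the mean of both arrays. It left 10197 genes, of which 2.76% were higher by 1.5-fold or more after β-catenin siRNA and 1.84% lower by that size. Over all 19938 genes, without the filter, the shares were 2.23% and 2.35%.

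Of the 9 measured members, 6 passed the filter, and Sox5, Sox6 and Sp7 did not. Of the 6, Sox9 was at least 1.5-fold higher, where 2.76% of all kept genes were, and Runx1 was lower by that size, where 1.84% were. With 6 genes chosen in view of these values, nothing is read from those shares. The 4 other members that passed lay within 1.5-fold, as did the 3 that did not. The members ran from -0.63 for Runx1 to 1.39 for Sox9 on the log2 scale of the difference, and the differences among the Sox genes did not share a direction.

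**Figure D1:**
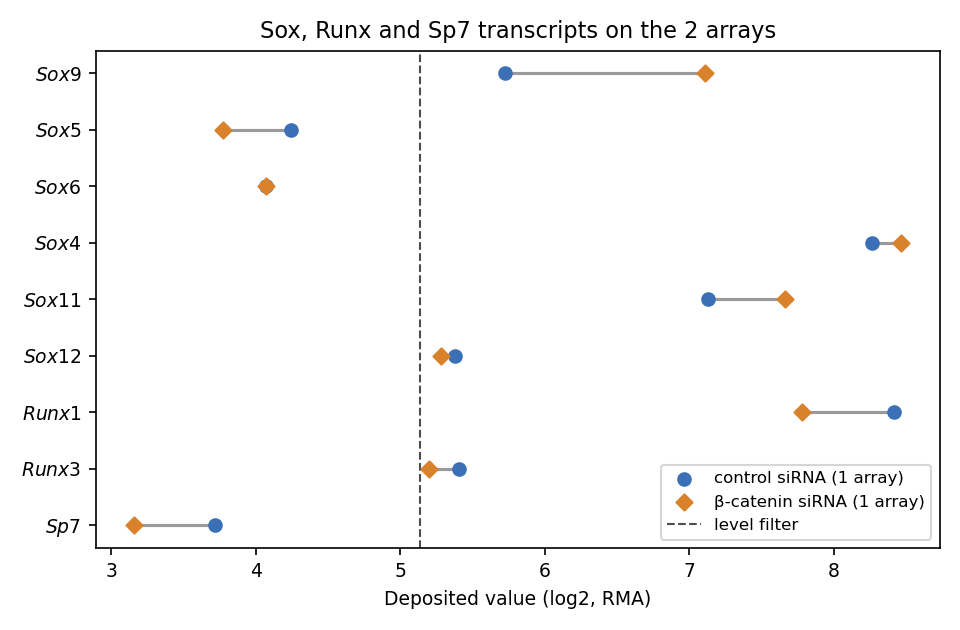
Deposited log2 values (horizontal axis) of the 9 measured genes on the control siRNA array (circles) and the β-catenin siRNA array (diamonds), 1 array each, with the level filter of 5.13 as a dashed line. Sox9 moves from 5.72 to 7.11 and Runx1 from 8.41 to 7.78, while Sox5, Sox6 and Sp7 lie under the filter on both arrays.

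Sox9 was higher after β-catenin siRNA. Its probe set (10382328) read 5.72 (log2) with control siRNA and 7.11 with β-catenin siRNA. The difference of 1.39 corresponds to a 2.61-fold higher signal. It was the 40th highest of the 10197 kept genes, of which 0.912% were at least 2-fold higher. Both values of Sox9 lay above the filter, so it did not pass on 1 array alone. With a stricter filter, at the 75th percentile of gene means, Sox9 was not kept. For scale, the robust SD of the difference among the 500 genes nearest to Sox9 in level was 0.23. That spread mixes array noise, differences between cultures and effects of the siRNA.

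Some markers of another cell type that uses Sox9 were higher too. The keratinocyte and hair follicle list had 22 measured markers, of which 10 passed the filter. Of those 10, 4 were at least 1.5-fold higher and 1 was at least 1.5-fold lower, against 2.76% and 1.84% of all kept genes. Over all 22 markers, 16 were above 0 and 5 below. The median difference was 0.45 over the 10 and 0.19 over the 22, against -0.02 over all kept genes and -0.02 over all measured genes. With the filter on mean level, a setting chosen after seeing the data, the median of the kept markers was 0.40. The summed linear signal of the 22 markers was 1320 with control siRNA and 1767 with β-catenin siRNA, a ratio of 1.34.

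Krt5, a keratin of basal keratinocytes, had 7.64 with control siRNA and 8.65 with β-catenin siRNA, 2.02-fold higher. Krt17, a keratin of hair follicles and activated keratinocytes, had 6.59 and 7.38. Krt14, the partner of Krt5, had 8.03 and 8.65, 1.54-fold higher. These keratins were thus well above the filter on both arrays. Cdh1, the epithelial cadherin, had 5.23 and 5.98. The member of the list that was lower by 1.5-fold or more was Itga6, an integrin subunit of the basal layer, with 7.18 and 6.39. Epcam, an epithelial adhesion molecule, had 4.76 and 5.26, so it passed the filter through the β-catenin siRNA array only. Perp of desmosomes had 6.61 and 7.01, and Dsc3, a desmosomal cadherin, had 4.51 and 5.08. Some other genes of the lineage were dim on both arrays and differed little or were lower. Trp63, a master regulator of stratified epithelium, had 4.61 with control siRNA and 4.62 with β-catenin siRNA, Lhx2 of hair follicle stem cells had 4.65 and 4.72, and Krt15 of basal cells had 4.30 and 3.75. Ovol1 (4.25 and 3.84), Krt6a (4.62 and 4.34) and Grhl3 (4.78 and 4.63) were also lower and under the filter. Apart from Krt5, Krt17 and Itga6, the markers named in this paragraph were picked after their values were seen. In such bulk RNA, a change in the share of a cell type and a change in RNA per cell cannot be told apart, and the part of epithelial cells in the Sox9 value was not tested.

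**Figure D2:**
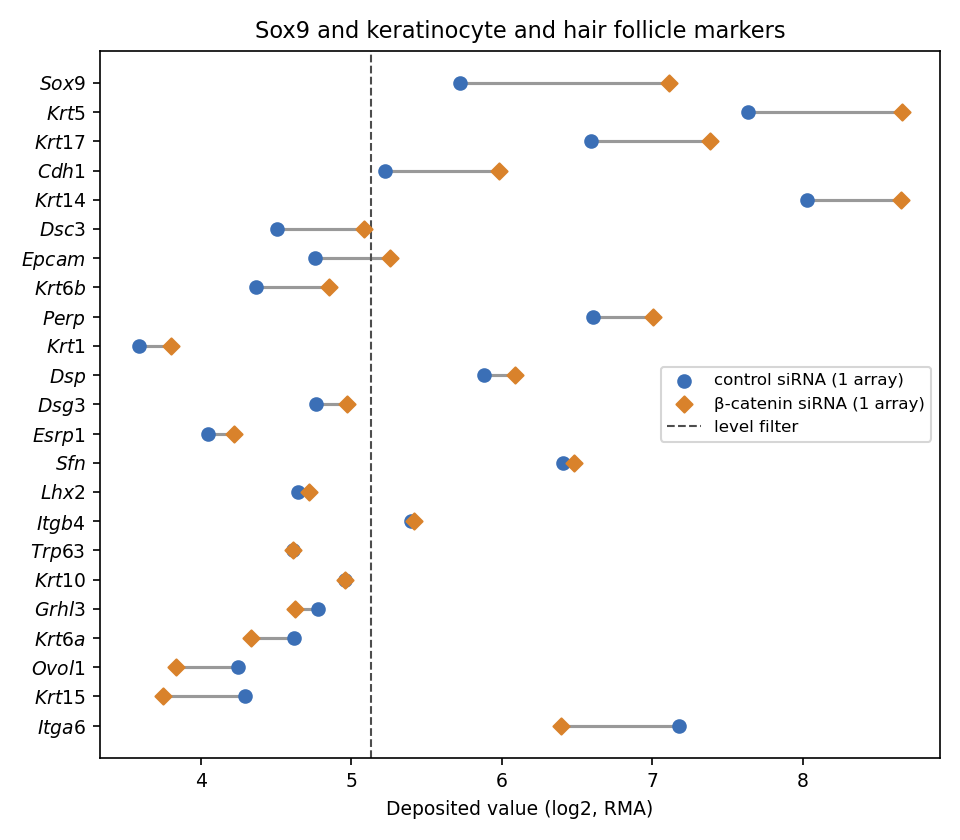
Deposited log2 values (horizontal axis) of Sox9 and the 22 keratinocyte and hair follicle markers on the control siRNA array (circles) and the β-catenin siRNA array (diamonds), ordered below Sox9 by difference, with the level filter of 5.13 dashed. Krt5, Krt17, Cdh1 and Krt14 lie to the right on the β-catenin siRNA array, Itga6 lies to the left, and Trp63 is at 4.61 and 4.62.

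Sox5 and Sox6, the partners of Sox9 in cartilage, were under the filter on both arrays. Sox5 had 4.24 with control siRNA and 3.78 with β-catenin siRNA, which is 72.5% of the control signal (difference -0.46). Sox6 had 4.07 on both arrays, a difference of exactly 0. Identical values on both arrays were found for 1880 of 28944 probe sets (6.50%), so Sox6 was not alone in this. The robust SD among the 500 genes nearest in level was 0.27 for Sox5 and 0.27 for Sox6, wider than the 0.23 for Sox9. At these levels a difference is compressed by background signal, and neither gene can be called above or below background, since detection calls were not used here.

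The SoxC genes passed the filter on both arrays. Sox4 had 8.26 with control siRNA and 8.47 with β-catenin siRNA, 1.15-fold higher. Sox11 had 7.13 and 7.66, a difference of 0.53 or 1.45-fold, just short of 1.5-fold. Sox12 had 5.38 and 5.28, a difference of -0.10. Sox4 and Sox11 were thus higher and Sox12 slightly lower, all within 1.5-fold. Of these genes Sox11 ranked highest, 327th of the 10197 kept genes.

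Other Sox genes were mostly dim. Of 14 further family members measured, 3 passed the filter (Sox1, Sox3 and Sox13), and none of the 14 differed by 1.5-fold. The shares over all measured genes were 2.23% higher and 2.35% lower, so a list of this size could hold none. Over the 14, 7 were above 0 and 5 below, with a median of 0.03. Sox1, a neural factor, had 5.92 with control siRNA and 6.12 with β-catenin siRNA. Sox3, its close relative, had 5.57 and 5.20, and Sox13, a SoxD gene like Sox5 and Sox6, had 5.80 on both. Sox10, the SoxE relative of Sox9 that marks melanocytes and Schwann cells, had 3.95 and 4.22, under the filter.

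Markers of the cell types that use those relatives were low as well. Of 12 measured melanocyte and Schwann cell markers, none differed by 1.5-fold, against 2.23% higher and 2.35% lower over all measured genes. The filter was passed by 3 of the 12. Among them Tyrp1, a melanin enzyme, had 5.78 with control siRNA and 5.41 with β-catenin siRNA, Pmel of melanosomes had 5.34 and 5.07, and Dct, a further melanin enzyme, had 5.18 and 5.16. The list summed to a linear signal of 288 with control siRNA and 270.4 with β-catenin siRNA. Of 9 endothelial markers, among them Sox17 and Sox18, only Kdr, a receptor for vascular endothelial growth factor, passed the filter, with 5.34 and 4.82. Kdr and Pmel passed through the control array only. Tek, a receptor of endothelial cells under the filter, had 3.73 and 4.43 and was the list's only measured gene past 1.5-fold. It was picked after its values were seen. The part of these cells in the Sox values was not tested.

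Runx1 was lower after β-catenin siRNA. Its probe set (10441003) had 8.41 with control siRNA and 7.78 with β-catenin siRNA. The difference of -0.63, 64.6% of the control signal, placed it 151st from the lowest of the 10197 kept genes. The robust SD among the 500 genes nearest in level was 0.20. The value was close to the threshold of 1.5-fold, which is 0.58 on the log2 scale. Runx3 had 5.40 with control siRNA and 5.20 with β-catenin siRNA, a difference of -0.20. Its values lay near the filter on both arrays. Cbfb, the shared partner subunit, had 8.39 and 8.67, 1.22-fold higher, so the partner and Runx1 lay on opposite sides of 0.

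Some RefSeq promoter windows of the Runx genes shared a run of letters, shown here because Runx1 was the member that was lower by the size rule. A window covers 250 bases before and 50 bases after an annotated transcript start. Windows were found for 8 of the 10 listed genes, 15 windows in all, on build GRCm38.p6. Sox9 and Sp7 had none, so their promoters were not searched. The first window of Runx1, the single window of Runx2 and the first window of Runx3 held the same 18 bases, given in capitals within 30 bases of each window.

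Runx1: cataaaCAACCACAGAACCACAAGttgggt

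Runx2: cacaaaCAACCACAGAACCACAAGtgcggt

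Runx3: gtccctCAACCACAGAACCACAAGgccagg

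These stretches lie on the minus strand at chr16:92826025-92826054 for Runx1, on the minus strand at chr17:44814583-44814612 for Runx2 and on the plus strand at chr4:135120503-135120532 for Runx3. The shared run begins at base 27 of the Runx1 transcript and base 22 of the Runx2 transcript, counting the first transcribed base as 1, and 136 bases before the start of Runx3. It holds the RUNX motif (searched as TGTGGT or TGCGGT on both strands) in a tandem copy, read here as its reverse complement ACCACA. Of 32851 windows, 4 held the run, and the one outside these genes belongs to the lncRNA gene Gm16225, whose window overlaps that of Runx3. The motif itself is common, with at least 1 match in 22.4% of all windows. It occurred in 3 of the 5 Runx windows and in 2 of the 10 Sox windows. The shared run was sought only among those 3 Runx windows, so the motif within it is not a separate finding. A match of letters is a description of the sequence and not of binding.

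The 250 bases before the first annotated start of Runx1, on the minus strand at chr16:92826075-92826324, are printed, since Runx1 was the lower member. Another Runx1 window, at chr16:92697280-92697579, held no match of the motifs searched. Which start these cells use was not tested.

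Runx1 upstream: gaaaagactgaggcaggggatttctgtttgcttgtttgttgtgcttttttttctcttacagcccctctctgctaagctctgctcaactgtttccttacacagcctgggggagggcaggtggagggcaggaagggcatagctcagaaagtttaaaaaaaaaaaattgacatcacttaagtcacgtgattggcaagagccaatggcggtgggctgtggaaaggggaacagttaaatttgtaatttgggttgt

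None of the searched motifs matched within these 250 bases. The TCF/LEF motif, through which β-catenin reaches DNA with its partners, was searched as CTTTGAA or CTTTGAT and its core as CTTTG, and the SOX motif as ACAATG or ACAAAG, all on both strands. The core and the second SOX form overlap, since ACAAAG read on the other strand holds CTTTG. TCF/LEF matches were found in 3 of the 15 member windows, all among the 6 windows of Sox6, against 8.65% of all windows. The core matched in 53.9% of all windows and the SOX motif in 28.6%. Just past the printed stretch, the same Runx1 window held 1 core match, CTTTG at base 11 of the transcript. That the searched letters are missing from the printed 250 bases says nothing of other sites.

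Blood cells use Runx1 and Runx3, and their markers were dim on both arrays. Of 17 markers 1 passed the filter, Lyz2 (lysozyme of myeloid cells), with 4.75 with control siRNA and 5.38 with β-catenin siRNA. The pan-leukocyte gene Ptprc, named after its values were seen, had 3.10 and 2.61. Over the 17, 4 were above 0 and 12 below, with a median of -0.11. The list summed to a linear signal of 209 with control siRNA and 207 with β-catenin siRNA, a ratio of 0.99. Without Lyz2, which reached the filter on the β-catenin siRNA array only, the sums of the other 16 were 182 and 165, a ratio of 0.91, a comparison added after seeing the data. These sums rest mostly on dim signal, and the part of blood cells in the Runx1 and Runx3 values was not tested.

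Sp7, the osteoblast factor that acts after Runx2, was under the filter. It had 3.72 with control siRNA and 3.16 with β-catenin siRNA. The difference of -0.56 corresponds to 67.8% of the control signal and rests on a dim signal on both arrays. The robust SD among the 500 genes nearest in level was 0.28, wider than the 0.20 for Runx1.

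**Figure D3:**
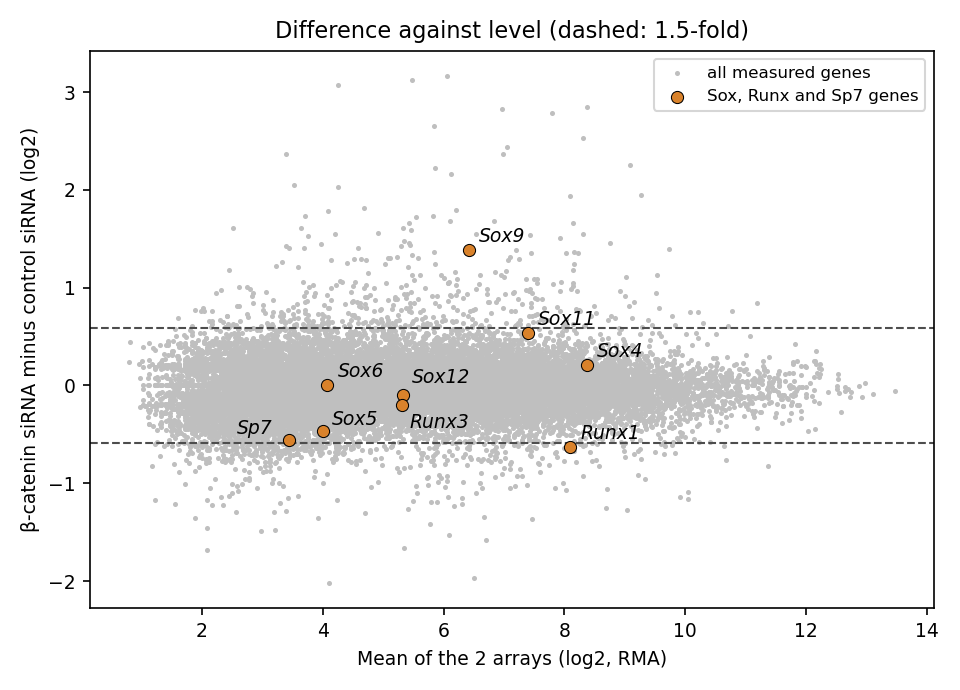
Difference between the β-catenin siRNA and the control siRNA array (vertical axis, log2) against the mean of both arrays (horizontal axis, log2), 1 grey point for each of the 19938 genes, with the 9 measured Sox, Runx and Sp7 genes marked and 1.5-fold dashed. Sox9 at 1.39 lies above the upper line, Runx1 at -0.63 just below the lower line, Sox11 at 0.53 just under the upper line, and Sp7 and Sox5 lie among dim genes.

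Genes of cartilage matrix, some of them known targets of Sox9 with Sox5 and Sox6 in chondrocytes, stayed within 1.5-fold. Of 22 genes measured, 7 passed the filter, and none of the 22 was 1.5-fold higher or lower. Over all measured genes 2.23% were higher and 2.35% lower by that size, so nothing is read from this count. Over the 22, 3 were above 0 and 16 below, with a median of -0.09, against -0.02 over all measured genes. Col2a1, the main cartilage collagen, had 6.29 with control siRNA and 6.42 with β-catenin siRNA, a difference of 0.13. Acan, the cartilage proteoglycan aggrecan, was under the filter with 3.29 and 3.05. It and Col2a1 are named as defining cartilage genes, picked after their values were seen. The kept genes with the largest differences were lower. Col11a1, a minor fibrillar collagen of cartilage that skin cells also make, had 8.16 and 7.68. Chst11, a chondroitin sulphotransferase, had 6.37 and 5.93, and Col11a2 had 5.80 and 5.66. The difference of Col11a2, -0.14, was close in size to that of Col2a1, which was higher.

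Osteoblast genes held single larger differences and no common direction. Of 18 measured, 8 passed the filter, and of these 2 were higher and 1 was lower by 1.5-fold or more. The shares over all kept genes were 2.76% and 1.84%. The median over the 18 was 0.00. Vdr, the vitamin D receptor, had 5.65 with control siRNA and 6.58 with β-catenin siRNA, 1.90-fold higher. Mmp13, a collagenase of hypertrophic cartilage and bone and a known Runx2 target, had 4.18 and 5.33, so its control value was under the filter. Pth1r, the parathyroid hormone receptor, had 8.15 and 7.33, 1.76-fold lower. These 3 genes are expressed by many other cells. Among measured genes largely restricted to bone cells, Ibsp (bone sialoprotein) was dim at 3.69 and 3.39, and so was Dmp1 at 3.24 and 3.28. Both were picked after their values were seen. Bglap, Bglap2 and Spp1, also in the list of 21, had no probe set assigned to them alone and were not measured.

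Partners of the members and other skeletal transcription factors were lower more often than higher, by small amounts. Of 25 measured, 18 passed the filter and none of the 25 differed by 1.5-fold. By that size, 2.23% of all measured genes were higher and 2.35% lower, so nothing is read from this count. Over the 25, 16 were below 0 and 8 above, with a median of -0.13 against -0.02 over all measured genes. The share of all genes below 0 was not counted, so nothing is read from the signs. Prrx2, a homeobox factor of limb and skin mesenchyme, had 7.14 with control siRNA and 6.57 with β-catenin siRNA, a difference of -0.57. Tle1, a Groucho corepressor that binds Runx proteins, had 6.42 and 5.91. Mef2c, a regulator of chondrocyte hypertrophy, had 5.78 and 5.31. These 3 had the largest differences of the kept genes in the list, and each was under 1.5-fold.

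Signals that act on the members also went both ways. Of 22 skeletal signalling genes measured, 15 passed the filter, with a median of 0.01 over the 22. Of the 15, 2 were higher and 1 was lower by 1.5-fold or more, against 2.76% and 1.84% of all kept genes. Bmp6, a bone morphogenetic protein, had 5.27 with control siRNA and 5.87 with β-catenin siRNA. Bmp2, a ligand that induces cartilage and bone and is known to raise Sox9, had 5.53 and 6.12. Bmp6 was 1.52-fold higher and Bmp2 just over 1.5-fold, at the edge of the size rule. Grem1, a secreted antagonist of BMP ligands, had 8.90 and 8.14, 1.69-fold lower. BMP receptors and Smad genes that passed the filter, such as Bmpr2 (8.23 and 8.67, picked after its value was seen), stayed within 1.5-fold.

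**Figure D4:**
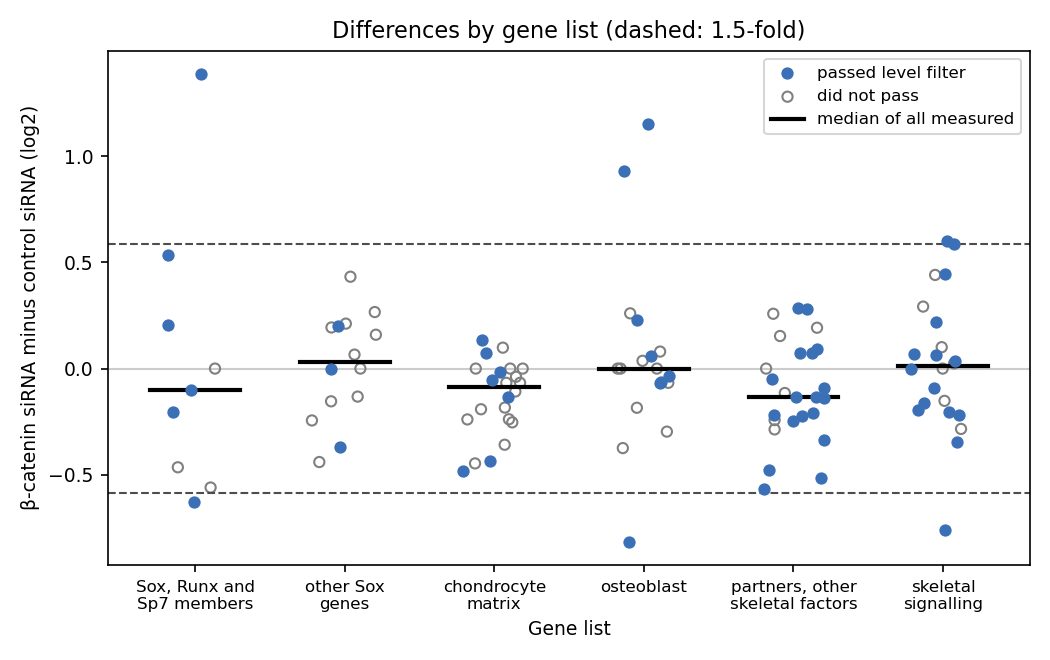
Difference between the β-catenin siRNA and the control siRNA array (vertical axis, log2) for the measured genes of 6 groups (horizontal axis), filled where the level filter was passed and open where it was not, with the median of all measured genes in a group as a bar and 1.5-fold dashed. Sox9 at 1.39 stands highest among the members, the cartilage matrix genes lie between -0.48 and 0.13, and Vdr, Mmp13 and Pth1r lie outside the dashed lines among osteoblast genes.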

How the data were processed

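Total RNA (300 ng per array, per the labels' protocols) was hybridised to 2 Affymetrix whole-transcript arrays. The deposited table holds 1 log2 value per probe set and array, made by the authors with RMA, per the submitters' processing notes. The log2 scale was judged from the values, which ran from 0.485 to 13.5. For the software version, filters and genome build, nothing is given in the sources used here. RMA aligns the arrays' distributions and leaves background in dim values, which shrinks their differences. The number of arrays limits the precision.

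Of 28944 probe sets, 21789 had 1 gene symbol, 1621 several and 5534 none in the platform annotation. Symbols were updated through RefSeq gene identifiers (GRCm38.p6) for 21698. A gene was represented by its probe set with the highest mean, and the control value was subtracted from the β-catenin siRNA value. Counts used 1.5-fold and the filter at the median gene mean. Genes above and below 0 were not counted over all genes, so the sign counts of the lists are descriptions. The members and gene lists were chosen with earlier results of these data known. Apart from the members, Ctnnb1, Axin2, Nkd1 and Lef1, genes were named if they were kept and at least 1.5-fold apart, or, where a list had fewer than 3 of these, if their differences ranked in the top 3 of its kept genes by size. Marker lists gave up to 3 kept genes by size. Genes outside this rule are marked in the text; Col1a1, Vim, Cbfb, Krt14, Cdh1, Sox10 and Pdgfra were also picked after their values were seen. Python 3.11.15, pandas 2.3.3 and statsmodels 0.14.6 were used. Promoter sequences are RefSeq's, build GRCm38.p6.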

Additional observations from a re-analysis of the deposited data

How the results depend on the processing

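There was 1 array per group, so no replicate could be left out, and no member had a further probe set to try. No paired analysis was possible because each group had 1 array. With a filter at the 75th percentile of gene means, 0 members were at least 1.5-fold higher, since Sox9 did not pass it, and at 2-fold 0 were lower, since Runx1 is under that size. The other 18 settings of these counts gave the same numbers, including a filter on mean level that was chosen after seeing the data. Sox9 ranged from 1.39 to 1.51 and Runx1 from -0.65 to -0.60 over the mean of probe sets, median centring, lowess centring (span 0.3) and subtraction of 0.5, 1 or 2 times the median signal of the dimmest 5% of genes. With such subtraction Sp7 was -0.81 at 1 times and 0 at 2 times, where both its values fell to the floor, and Sox5 was -0.80 at 2 times. The median of the blood cell markers was 0.63 from 1 kept gene and -0.11 without the level filter. Of the list counts 17 changed by over 1.5 times in 154 comparisons, and of the list medians 6 more moved by over 0.20, the pooled SD between probe sets of a gene. Dim signals limit what Sox5, Sox6 and Sp7 can show.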

Other observations

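Genes of tendon, another skeletal tissue, held no difference of 1.5-fold. Of 6 measured, 4 passed the level filter. With 2.23% of all measured genes higher and 2.35% lower by 1.5-fold, a list this short could hold none. Tnmd, the tendon membrane protein tenomodulin, had 8.95 with control siRNA and 8.51 with β-catenin siRNA. Mkx, a homeobox factor of tendon, had 4.95 and 5.43, and Fmod, the collagen-binding proteoglycan fibromodulin, had 5.72 and 6.08. Mkx passed the filter through the β-catenin siRNA array only. The median over the 6 was 0.17.

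Among the 14 dermal fibroblast markers, 3 were at least 1.5-fold higher and 1 was lower by that size, against 2.76% and 1.84% of all kept genes. Lum, the proteoglycan lumican, had 6.60 with control siRNA and 7.89 with β-catenin siRNA, and Dcn (decorin) had 10.77 and 11.61. Pdgfra, a receptor for platelet-derived growth factor, was at 9.83 and 10.58. Fap, a protease of activated fibroblasts, had 5.24 and 4.49, so it passed the filter through the control array only. With the filter on mean level, chosen after seeing the data, 0 kept markers were lower by 1.5-fold. The median over the 14 was 0.09.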
